A study of Homo sapiens with 16 samples.

Results

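The genes described here are 8 keratins (KRT7, KRT8, KRT10, KRT18, KRT19, KRT20, KRT23 and KRT80) and vimentin (VIM), read from RNA sequencing of SW480 cells, a human colon adenocarcinoma line, in which the LIM-domain protein Ajuba was knocked down or overexpressed. They were taken by gene symbol and are 9 of the 66023 genes in the count table. All 9 passed the filter on low counts in every comparison. The study had 16 samples of 6 lines. Parental cells (n = 2) were unmodified. shScrambled cells (n = 2) carried a lentiviral shRNA of random sequence, shAjuba1 cells (n = 3) an shRNA against the coding region of Ajuba and shAjuba2 cells (n = 3) an shRNA against its non-coding region. Ajuba OE cells (n = 3) carried a lentiviral Ajuba construct with a CMV promoter, and Control cells (n = 3) that construct with the Ajuba sequence removed. All transduced lines were selected as stable lines with puromycin, which the Parental cells did not receive. Each line is thus a single transduction as far as the labels tell, and the study's text calls the samples of a line technical replicates, so the p-values measure the spread between these samples and not between independent lines or cultures. Among the 14 pairs of samples within a line, the mean chi-square per gene was 10.3 to 277, above the counting noise of 1 per gene, and no sample was treated as a duplicate.

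Keratins build the intermediate filaments of epithelial cells. A filament forms only from pairs of a type I and a type II keratin, so that cells express both kinds together. KRT8 (type II) and KRT18 (type I) are the primary pair of simple epithelia such as the colon, KRT19 is a further type I partner in ducts and gut, and KRT20 marks mature intestinal cells. KRT7 (type II) is typical of ductal epithelia, KRT10 (type I) of the upper epidermis, and KRT23 (type I) and KRT80 (type II) are less studied epithelial keratins. Vimentin is a type III protein that forms filaments without a partner, mainly in mesenchymal cells, and is a widely used marker of epithelial to mesenchymal transition.

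The type II members KRT80 (chr12:52168996-52192014), KRT7 (chr12:52232520-52252186) and KRT8 (chr12:52897187-52949954) lie in the keratin cluster of chromosome 12 in hg38. KRT18 (chr12:52948871-52952906) is the only type I gene there, at the edge of a cluster of 26 type II genes. KRT10 (chr17:40818117-40822614), KRT20 (chr17:40875889-40885242), KRT23 (chr17:40922700-40937646) and KRT19 (chr17:41523617-41528308) stand among the 28 type I genes of chromosome 17, and VIM is at chr10:17228241-17237593. The exons of KRT8 and KRT18 share 525 bases on opposite strands, which is 7.63% of the exon bases of KRT8 and 17.1% of those of KRT18. VIM shares 656 exon bases (12.7%) with VIM-AS1 on the other strand. The libraries were stranded but the strand option of the counting was not stated, so reads from these shared bases cannot be assigned with certainty.

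Promoter sequence in RefSeq (GRCh38.p14) was matched for 4 of the 9 genes, KRT8, KRT10, KRT20 and VIM. That of KRT8 begins at a distant start site outside its main transcript and is not printed. The 250 bases before the start site of VIM and KRT10 are shown because VIM was among the genes called in shAjuba1 and KRT10 was called by edgeR in no comparison. Short motifs of a TATA box, a GC box, an AP-1 site, an E-box and a TEAD site were searched on both strands, and matches are in capitals. The promoter of VIM, on the plus strand at chr10:17227991-17228240, held 1 GC box (GGGCGG), a motif in 42.6% of 35116 promoters of that length. The promoter of KRT10, on the minus strand at chr17:40822615-40822864, held 1 TATA box (TATAAA), a motif in 10.7% of them, starting 29 bases before the start site. The AP-1 motif TGANTCA, in 6.6% of promoters, was in none of the 4. Neither the E-box CAGGTG, in 17.5% of promoters, nor the TEAD motif GGAATG, in 11.9%, was found in them.
VIM: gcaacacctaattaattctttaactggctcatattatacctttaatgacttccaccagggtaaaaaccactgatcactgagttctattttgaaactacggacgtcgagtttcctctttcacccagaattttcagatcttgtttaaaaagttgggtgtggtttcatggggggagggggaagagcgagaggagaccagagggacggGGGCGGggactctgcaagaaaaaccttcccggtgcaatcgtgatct
KRT10: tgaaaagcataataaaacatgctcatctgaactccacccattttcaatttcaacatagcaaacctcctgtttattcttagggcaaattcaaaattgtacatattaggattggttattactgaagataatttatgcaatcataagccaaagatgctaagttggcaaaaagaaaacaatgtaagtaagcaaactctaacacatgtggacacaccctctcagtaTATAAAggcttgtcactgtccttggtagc

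The transcript aimed at was lower in every knockdown sample and higher in every Ajuba OE sample. AJUBA was at 83.4 and 81.6 RPM (the count per 1000000 counts of the sample) in shScrambled, 49.6, 47.3 and 53.5 RPM in shAjuba1 and 60.3, 68.6 and 57.1 RPM in shAjuba2. In Control it was at 89.6, 100.5 and 89.4 RPM and in Ajuba OE at 549.7, 461.8 and 566.2 RPM. By edgeR's quasi-likelihood test the fall was called in shAjuba1 (log2 fold change -0.73 ± 0.08, SE, adjusted p = 2.19e-05) and the rise in Ajuba OE (2.56 ± 0.11, adjusted p = 7.69e-05), while in shAjuba2 the value was -0.46 ± 0.13 with an adjusted p of 0.0773. Sample totals ran from 30132396 to 69684675 read pairs. Of 8 colon epithelium markers, 4 (EPCAM, VIL1, CDH1 and CDX2) averaged at least 1 RPM in every line. Of the other markers, 1 of 7 fibroblast genes (COL1A1; summed level 6.26 to 37.7 RPM), 1 of 3 endothelium genes (2.24 to 5.39 RPM) and none of 4 leukocyte genes (1.13 to 3.00 RPM) did so. PDGFRB, another fibroblast gene, averaged 4.34 to 9.68 RPM in 5 lines and 0.44 RPM in Ajuba OE. The summed fibroblast level was 22.4 to 22.8 RPM in shScrambled, 18.3 to 22.7 RPM in shAjuba1 and 25.0 to 37.7 RPM in shAjuba2. It was 15.6 to 24.6 RPM in Control and 6.26 to 10.5 RPM in Ajuba OE. None of COL1A2, COL3A1, DCN, LUM and PDGFRA exceeded 0.412 RPM in a sample. The part of the fibroblast level in the values of VIM was not tested. In bulk RNA, fewer cells of a kind and less RNA per cell cannot be told apart.

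KRT8 and KRT18 dominated the set. KRT8 ran from 1487 to 3165 RPM and KRT18 from 1152 to 2847 RPM, ranks 22 and 26 of all genes by mean RPM. KRT19 (193 to 639 RPM), KRT23 (198 to 695 RPM), VIM (161 to 363 RPM) and KRT80 (78.8 to 153 RPM) were at intermediate levels. KRT10 (9.73 to 24.1 RPM) and KRT7 (1.88 to 16.5 RPM) were low. KRT20 had 5 to 22 counts a sample, 0.104 to 0.641 RPM, so that differences in it were hardly detectable at this depth. Colon tumours are commonly described as KRT20-positive and KRT7-negative, a description of tumours and not of RNA levels in a cell line. In the RNA of these cells KRT7, though low, was above KRT20 in each sample. Per kilobase of main transcript KRT7 had at least 1.15 RPM and KRT20 at most 0.355.

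**Figure D1:**
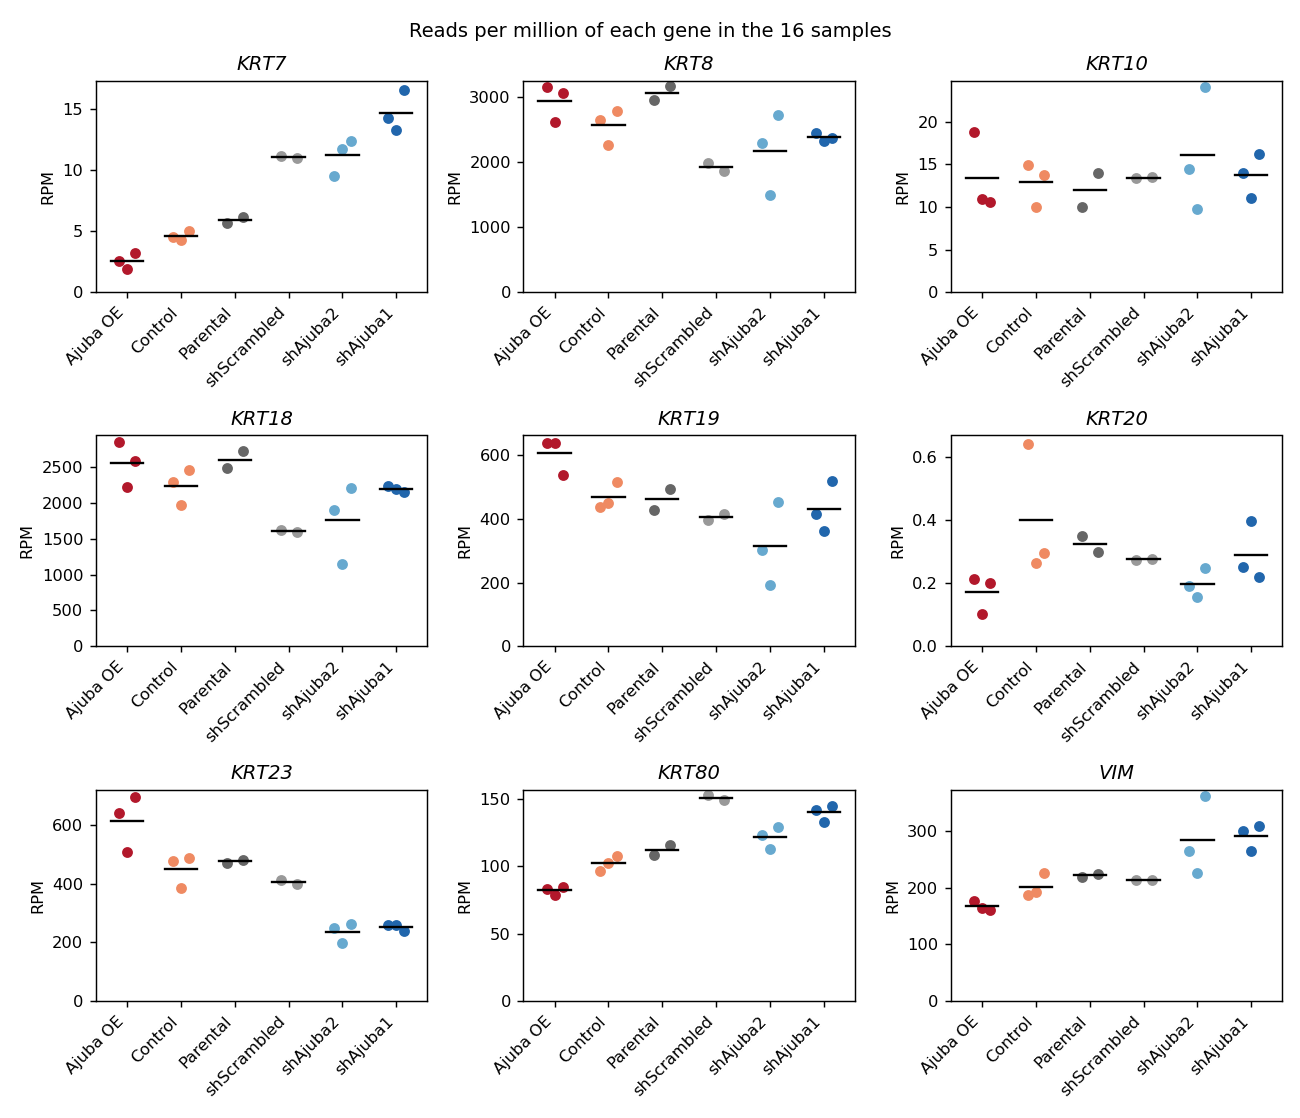
RPM of the 8 keratins and VIM in each sample (points) with the line's mean (bar), the lines ordered from Ajuba OE to shAjuba1 and each vertical axis starting at 0. KRT7 has its lowest mean, 2.52 RPM, in Ajuba OE and its highest, 14.7 RPM, in shAjuba1. Its mean is 5.87 RPM in Parental but 11.05 RPM in shScrambled, which overlaps shAjuba2. KRT23 is highest in Ajuba OE and lowest in both knockdown lines.

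KRT23 was the member that was called in both knockdown lines. It stood at 411 and 398 RPM in shScrambled, at 259, 258 and 239 RPM in shAjuba1 and at 247, 198 and 262 RPM in shAjuba2. Every knockdown sample was below every other sample of the series. KRT23 fell by 0.70 ± 0.08 on the log2 scale in shAjuba1 (adjusted p = 3.12e-05) and by 0.83 ± 0.15 in shAjuba2 (adjusted p = 0.0178). Both comparisons use the same 2 shScrambled samples. The call in shAjuba1 held in the 14 alternatives of sample, scaling, filter and tool (-0.94 to -0.65), though not with a minimum log2 fold change of 1, whereas in shAjuba2 it was lost without shScrambled replicate 1 (adjusted p = 0.19), shScrambled replicate 2 (0.177) or shAjuba2 replicate 1 (0.0828), in a range of 8.12e-05 to 0.19 over the alternatives. In Ajuba OE KRT23 was at 641, 508 and 695 RPM against 477, 385 and 489 RPM in Control. These ranges did not overlap, but the log2 fold change of 0.51 ± 0.15 had an adjusted p of 0.113.

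VIM was at 213 and 214 RPM in shScrambled and at 300, 265 and 308 RPM in shAjuba1, without overlap. It rose by a log2 fold change of 0.43 ± 0.09 in shAjuba1 (adjusted p = 0.0018). This call held in the same 14 alternatives, and like every call of a member in shAjuba1 it was lost with a minimum log2 fold change of 1. In shAjuba2 it was at 265, 226 and 363 RPM, above shScrambled in each sample but widely spread, and the value of 0.36 ± 0.20 had an adjusted p of 0.29. Without shAjuba2 replicate 2 it was 0.49 with an adjusted p of 0.0109 (range over the alternatives 0.0109 to 0.689). Ajuba OE, at 177, 164 and 161 RPM, was below the 188, 192 and 225 RPM of Control in each sample, with a log2 fold change of -0.20 ± 0.10 and an adjusted p of 0.359. VIM was thus lowest in Ajuba OE and highest in the knockdown lines, the reverse of KRT23. Across the 16 samples, which share lines and are no independent points, Pearson's r of log2 values was -0.788 between VIM and KRT23.

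KRT8 and KRT18 moved as a pair. KRT8 was at 1991 and 1869 RPM in shScrambled and at 2442, 2332 and 2366 RPM in shAjuba1. KRT18 was at 1617 and 1589 RPM in shScrambled and at 2237, 2186 and 2152 RPM in shAjuba1. Neither overlapped, and both rose in shAjuba1, KRT8 by a log2 fold change of 0.29 ± 0.09 (adjusted p = 0.0213) and KRT18 by 0.44 ± 0.09 (adjusted p = 0.00169). The direction rested on the control line. Parental cells were higher than shAjuba1 for both, at 2963 and 3165 RPM for KRT8 and at 2473 and 2716 RPM for KRT18. Against Parental the log2 fold changes in shAjuba1 were -0.39 for KRT8 (adjusted p = 0.00261; range over the alternatives 0.00261 to 0.261) and -0.27 for KRT18 (adjusted p = 0.0226; range 1.36e-06 to 0.112). The KRT8 call was also lost without shScrambled replicate 2 (adjusted p = 0.137), shAjuba1 replicate 1 (0.0803) or shAjuba1 replicate 2 (0.0669). With all 16 samples in 1 fit the adjusted p was 0.261 for KRT8 and 0.112 for KRT18.

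The shAjuba2 line spread most for this pair. KRT8 was at 2302, 1487 and 2720 RPM and KRT18 at 1901, 1152 and 2207 RPM, with replicate 2 the lowest of all 16 samples for both. The log2 fold changes against shScrambled were 0.12 ± 0.24 and 0.08 ± 0.25 (adjusted p = 0.793 and 0.876). In Ajuba OE KRT8 was at 3159, 2615 and 3064 RPM against 2644, 2262 and 2788 RPM in Control, and the groups overlapped. KRT18 was at 2847, 2222 and 2581 RPM against 2285, 1963 and 2451 RPM, also with overlap. Replicate 2 was the lowest of its line for both genes in both lines. The log2 fold changes were 0.26 ± 0.14 and 0.25 ± 0.14, with adjusted p of 0.37 and 0.406. Over all 16 samples KRT8 and KRT18 had an r of 0.979, and the ratio of KRT8 to KRT18 per kilobase was between 0.845 and 1.02. The ratio was lowest in shAjuba1, at 0.845 to 0.871, below every other sample, and was 0.932 to 0.975 in shScrambled.

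**Figure D2:**
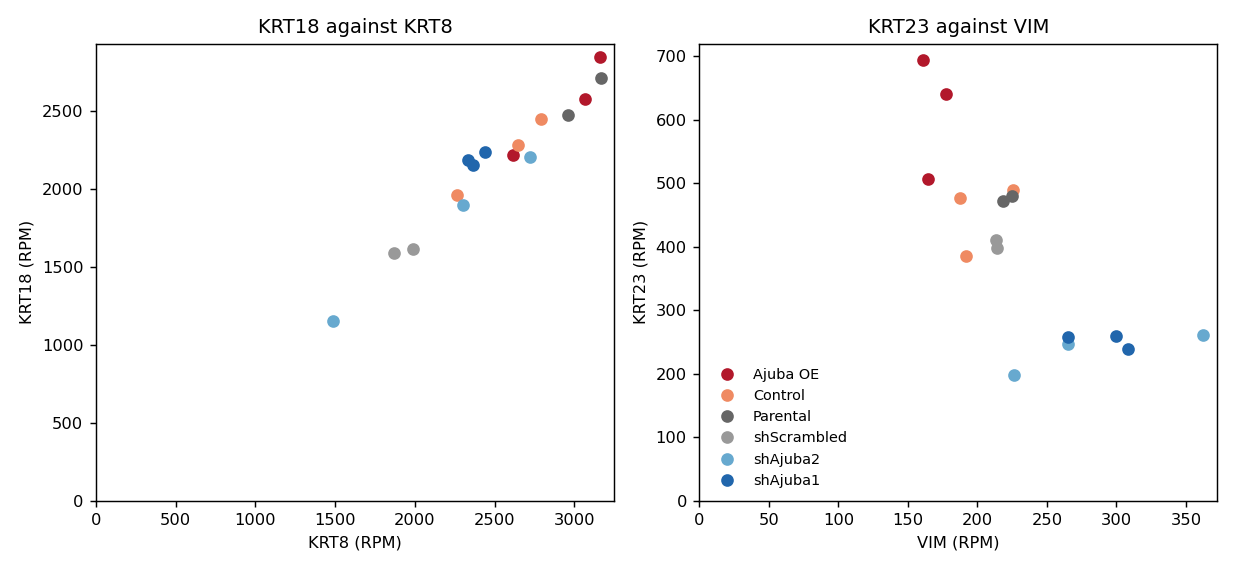
Left, KRT18 against KRT8, and right, KRT23 against VIM, in RPM with 1 point a sample, coloured by line, all axes starting at 0. KRT8 and KRT18 lie close to a line through all 6 lines of cells (r = 0.979), whereas the knockdown samples hold the high VIM and low KRT23 corner and Ajuba OE the opposite one (r = -0.788).

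KRT7, the ductal keratin, had the widest range of line means, 5.82-fold between Ajuba OE and shAjuba1. It was at 2.50, 1.88 and 3.19 RPM in Ajuba OE, at 4.51, 4.24 and 4.99 RPM in Control and at 5.64 and 6.10 RPM in Parental, each line apart from the next. It was higher at 11.1 and 11.0 RPM in shScrambled, at 9.48, 11.7 and 12.4 RPM in shAjuba2 and at 14.2, 13.3 and 16.5 RPM in shAjuba1. shScrambled and shAjuba2 overlapped and the shAjuba1 samples were above both. KRT7 rose in shAjuba1 by a log2 fold change of 0.39 ± 0.11 (adjusted p = 0.0151), a call that was lost without shScrambled replicate 1 (adjusted p = 0.0871) or replicate 2 (0.119), and with all 16 samples in 1 fit (0.103; range over the alternatives 1.64e-05 to 0.119). With Parental as the control the value was 1.29 (adjusted p = 1.64e-05). In shAjuba2 the value was -0.03 ± 0.16 (adjusted p = 0.931). In Ajuba OE it was -0.81 ± 0.20 with an adjusted p of 0.0667, and DESeq2 gave -0.79 with an adjusted p of 0.0103 (range over the alternatives 0.00147 to 0.249).

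KRT80 followed KRT7 across the samples (r = 0.935). It was lowest in Ajuba OE at 82.7, 78.8 and 84.8 RPM, below the 96.6, 102 and 108 RPM of Control, and highest in shScrambled at 153 and 149 RPM. shAjuba1, at 142, 133 and 145 RPM, and shAjuba2, at 123, 112 and 129 RPM, were below shScrambled in each sample and were apart from each other. The log2 fold change of shAjuba1 was -0.12 ± 0.08 and that of shAjuba2 -0.36 ± 0.12 (adjusted p = 0.218 and 0.106), and Ajuba OE gave -0.25 ± 0.09 (adjusted p = 0.173). Against Parental the shAjuba1 value was 0.29, with an adjusted p of 0.0107 (range over the alternatives 0.0107 to 0.6).

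KRT19 was highest in Ajuba OE, at 639, 638 and 537 RPM, above the 436, 449 and 516 RPM of Control without overlap. The log2 fold change of 0.44 ± 0.12 had an adjusted p of 0.0943. In shAjuba1 it was at 414, 362 and 518 RPM and in shAjuba2 at 301, 193 and 453 RPM, and both overlapped the 395 and 415 RPM of shScrambled. KRT10, of the epidermis, had line means between 11.9 and 16.1 RPM that all overlapped, and its spread was widest in shAjuba2 at 14.4, 9.73 and 24.1 RPM. KRT20 was at 15, 5 and 8 counts in Ajuba OE and 22, 13 and 13 counts in Control, and the log2 fold change of -1.07 ± 0.46 had an adjusted p of 0.266.

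Counted together, 5 of the 9 genes were called in shAjuba1 against shScrambled, 4 higher (KRT7, KRT8, KRT18 and VIM) and 1 lower (KRT23). In that comparison 38.4% of the 21082 genes tested were called, 18.2% upward and 20.2% downward. For shAjuba2 against shScrambled 1 of 9 was called, lower (KRT23), beside 7.63% of all genes (3.19% up and 4.44% down). For Ajuba OE against Control edgeR called 0 of 9, beside 5.43% of all genes (2.39% up and 3.03% down). There 5 members had an unadjusted p under 0.05 and DESeq2 called 3 (KRT7, KRT19 and KRT23), beside 8.34% of all genes. The median log2 fold change of the 9 genes in the knockdown lines was 0.07 (shAjuba1) and -0.03 (shAjuba2), beside -0.007 and -0.005 for all genes tested. Under overexpression it was 0.12, beside -0.015. The members that moved did so in both directions, and no test of their share was made.

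The knockdown lines were also compared with each other. No member was called between shAjuba1 and shAjuba2 by edgeR, beside 19.6% of all genes (9.47% higher and 10.1% lower). There 2 had an unadjusted p under 0.05 (KRT7 at 0.44 ± 0.15 and KRT80 at 0.25 ± 0.10). DESeq2 called 1 (KRT7), beside 21.3% of all genes. The difference was 0.15 ± 0.13 for KRT23 and 0.08 ± 0.17 for VIM (adjusted p = 0.45 and 0.771). A call in shAjuba1 and not in shAjuba2 was therefore not shown to be a difference between the lines for these genes, nor does it show that they are alike.

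**Figure D3:**
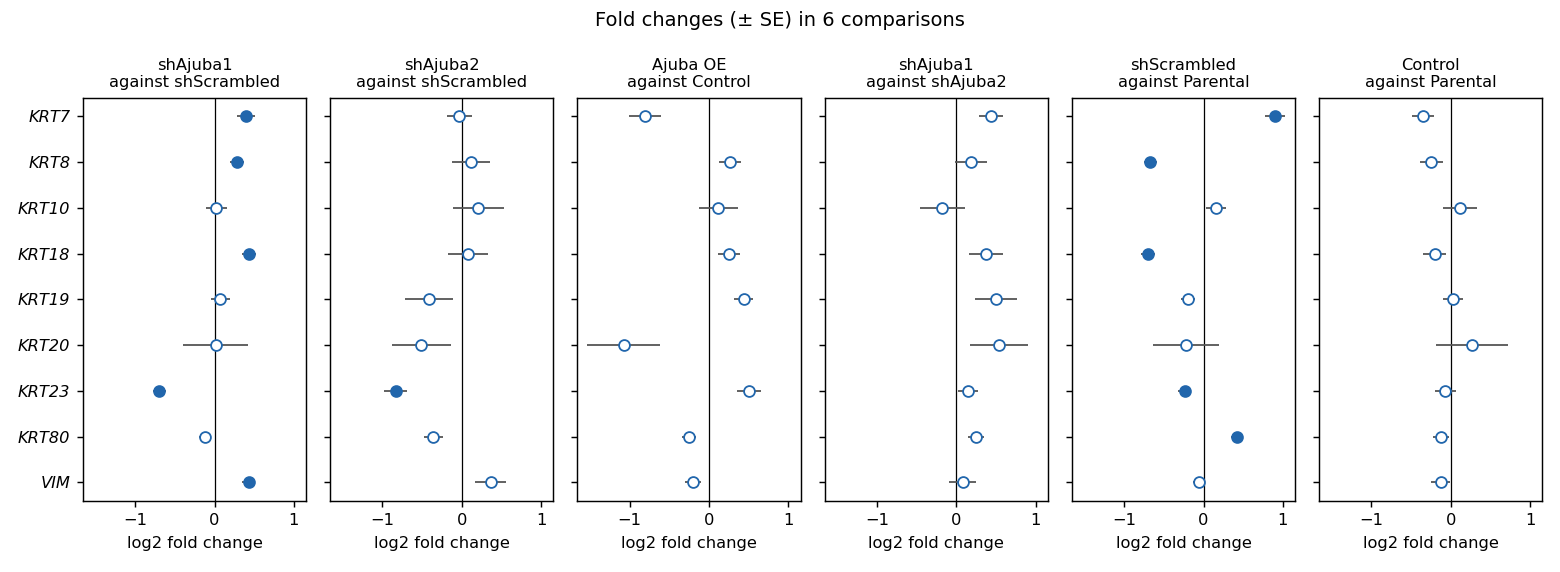
Log2 fold change (point) and its SE (line) of the 9 genes in 6 comparisons, filled where the adjusted p of edgeR was under 0.05. KRT23 is the only gene filled in both knockdown panels, and the shScrambled against Parental panel holds 5 filled points, as many as shAjuba1 against shScrambled.

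Lines without a construct against Ajuba differed in these genes too. In shScrambled against Parental 5 of 9 members were called, beside 30.7% of all genes (15% higher and 15.6% lower). KRT7 rose (0.90 ± 0.12, adjusted p = 5.55e-06) and KRT80 rose (0.42 ± 0.08, adjusted p = 0.000143). KRT8 fell (-0.67 ± 0.08, adjusted p = 1.49e-06), as did KRT18 (-0.70 ± 0.08, adjusted p = 8.65e-07) and KRT23 (-0.24 ± 0.08, adjusted p = 0.0245). The KRT23 call was lost without Parental replicate 1 (adjusted p = 0.0925), Parental replicate 2 (0.182) or shScrambled replicate 2 (0.111; range over the alternatives 0.00496 to 0.361). With all 16 samples in 1 fit it was lost (0.361), as was that of KRT18 (0.0536). For KRT7, KRT8 and KRT18 the change from Parental to shScrambled was larger in size than that from shScrambled to shAjuba1, which was not tested since the comparisons share the shScrambled samples. In Control against Parental edgeR called 0 of 9, beside 0.37% of all genes (0.0508% higher and 0.319% lower). There 1 member, KRT7, had an unadjusted p under 0.05, at -0.35 ± 0.14, and DESeq2 called none.

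On a per-length scale the members were set against all keratin genes with a main transcript. They made up 64.0 to 84.9% of the summed keratin RPM per kilobase, with KRT18 at 28.8 to 37.0% and KRT8 at 25.1 to 36.1%. VIM had 1.26 to 4.55% as much RNA per kilobase as all keratins together, lowest in Ajuba OE at 1.26 to 1.43% and highest in shAjuba2 at 3.35 to 4.55%. On this scale shAjuba1, at 2.53 to 2.75%, overlapped shScrambled, at 2.69 to 2.77%. The keratin sum itself differed, with means of 3401 RPM per kilobase in shAjuba2, 3634 in shScrambled and 5070 in shAjuba1. Most of the remainder was KRT5, a type II keratin of basal squamous epithelium, at 13.0 to 33.1%. Its usual type I partner KRT14 was at most 0.521 RPM and had 0 counts in the 3 shAjuba2 samples, which allows up to 3 counts each. TP63 and KRT1, listed with KRT5 and KRT14 as squamous epithelium markers, were at most 0.0997 and 0.110 RPM. Type II keratins were 50.9 to 60.9% of the sum, and their mean share was 59.9 ± 0.87% (SD, n = 3) in shAjuba1 and 51.8 ± 0.92% in shAjuba2. That of shScrambled was 52.0 ± 0.85% (n = 2), close to shAjuba2, and that of Parental 55.6 ± 0.75% (n = 2).

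**Figure D4:**
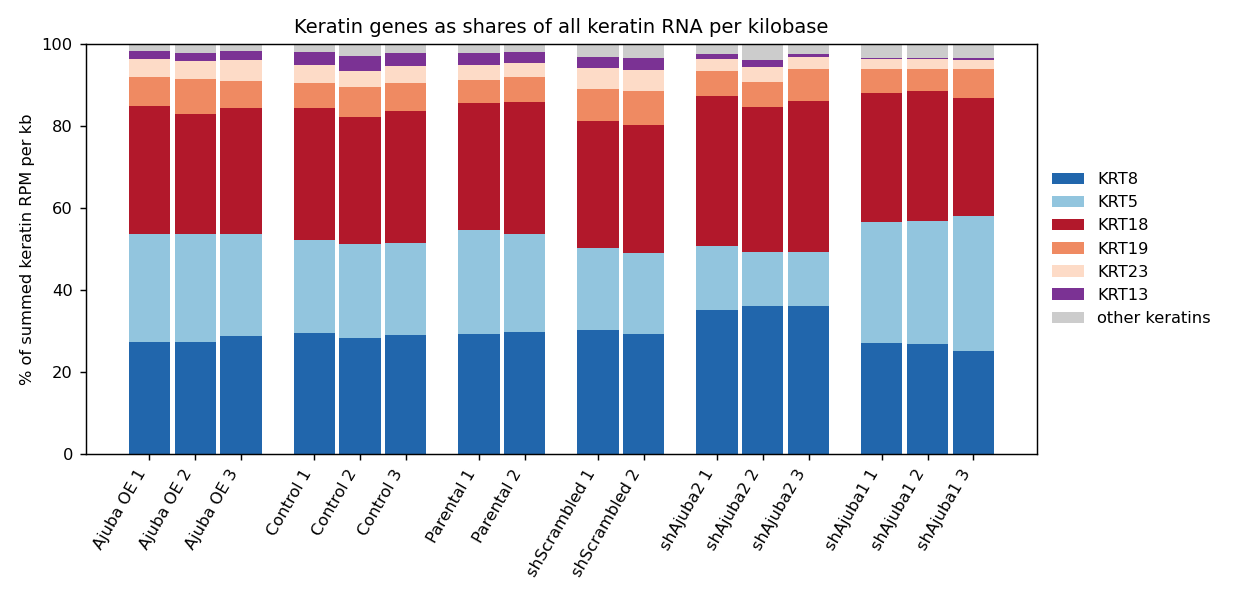
Share (%) of the summed keratin RPM per kilobase held by KRT8, KRT5, KRT18, KRT19, KRT23, KRT13 and all other keratins in each of the 16 samples. KRT5 holds 29.6 to 33.1% in shAjuba1 and 13.0 to 15.7% in shAjuba2, and the share of KRT13 is smallest in shAjuba1 at 0.406 to 0.511%.

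KRT5 was at 1636 and 1585 RPM in shScrambled, at 3340, 3259 and 3914 RPM in shAjuba1 and at 1294, 678 and 1231 RPM in shAjuba2. It rose in shAjuba1 by 1.11 ± 0.10 on the log2 scale (adjusted p = 3.41e-06). KRT13, a type I keratin of stratified mucosa, was at 167 and 178 RPM in shScrambled and at 35.1, 34.5 and 46.3 RPM in shAjuba1. In shAjuba2 it was at 70.5, 62.5 and 66.8 RPM. It fell by 2.18 ± 0.11 on the log2 scale in shAjuba1 (adjusted p = 3.12e-08) and by 1.42 ± 0.11 in shAjuba2 (adjusted p = 0.00105). KRT71 (2.56 ± 0.10) and KRT74 (1.17 ± 0.11), both of hair follicle sheaths, rose in shAjuba1, as did the hair keratin KRT81 (0.28 ± 0.10), which fell in Ajuba OE (-1.25 ± 0.24, adjusted p = 0.0276). KRT15, of basal cells, fell in shAjuba1 (-0.50 ± 0.10). The calls of KRT13, KRT71 and KRT74 held without each sample and with Parental as the control, which ended the calls of KRT5 (adjusted p = 0.397) and KRT15 (0.108). KRT71 averaged 38.3 RPM in Parental, 12.2 RPM in shScrambled and 72.8 RPM in shAjuba1. KRT74 averaged 51.3, 31.3 and 71.1 RPM. The rises of KRT71 and KRT74 were thus smaller against Parental, while the fall of KRT13 was larger (-2.86). The KRT15 call was also lost without shScrambled replicate 2 (0.0673). The KRT81 call was lost in shAjuba1 without either shScrambled sample or shAjuba1 replicate 1 (adjusted p = 0.0746 to 0.294), and in Ajuba OE without replicate 1 or 3 of either line (0.0613 to 0.128).

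Of 59 other keratin genes, including pseudogenes whose symbol ends in P, 31 were tested in shAjuba1, where 20 rose and 4 fell with a median log2 fold change of 1.17. In shAjuba2 28 were tested, 2 rose and 5 fell (median -0.39), and in Ajuba OE 26 were tested, 3 rose and 2 fell (median 0.19). Between shAjuba1 and shAjuba2 30 were tested, of which 17 were higher and 2 lower in shAjuba1. Over all genes tested, 38.4% were called in shAjuba1, 7.63% in shAjuba2, 5.43% in Ajuba OE and 19.6% between the knockdown lines. In shScrambled against Parental, where 30.7% of all genes were called, 4 of 29 rose and 13 fell (median -0.68), and in Control against Parental edgeR called 0 of 28, with 8 at an unadjusted p under 0.05 and 3 called by DESeq2. The medians of all genes tested were 0.03 and 0.04 in these last comparisons.

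The other genes of the filament system were counted in the same way. Their background is the share of all genes called, 38.4% in shAjuba1 (18.2% up and 20.2% down), 7.63% in shAjuba2 and 5.43% in Ajuba OE. Of 10 tested members of other intermediate filament families, 1 was called in each study comparison, namely DES, the muscle filament, higher in shAjuba1 (1.15 ± 0.15), SYNM lower in shAjuba2 (-0.58 ± 0.12) and NES, of progenitor cells, higher in Ajuba OE (0.56 ± 0.09). Of 17 linker and desmosome genes, which anchor keratin filaments to junctions, 4 rose and 6 fell in shAjuba1, 2 rose and 1 fell in shAjuba2, and 1 rose and 1 fell in Ajuba OE. In shAjuba1 the plakophilin PKP2 rose (0.39 ± 0.09) and desmoplakin, DSP, which ties filaments to desmosomes, fell (-0.25 ± 0.08). Against Parental instead of shScrambled, the shAjuba1 values of PKP2 and DES were -0.23 and -0.076. Of 15 enzymes and 14-3-3 proteins that modify or bind keratins and vimentin, 3 rose and 5 fell in shAjuba1, 1 fell in shAjuba2, and 1 rose and 1 fell in Ajuba OE. The transglutaminase TGM2, which crosslinks proteins, fell in Ajuba OE (-0.76 ± 0.11, adjusted p = 0.00962). Several of these calls were lost without 1 sample. For SYNM it was either shScrambled sample or shAjuba2 replicate 1 or 3 (adjusted p = 0.059 to 0.309), for NES Control replicate 3 or Ajuba OE replicate 1 or 3 (0.0686 to 0.107), and for DSP either shScrambled sample or shAjuba1 replicate 1 or 2 (0.0649 to 0.146). For PKP2 it was shScrambled replicate 2 (0.0704) and for TGM2 Control replicate 3 (0.071) or Ajuba OE replicate 1 (0.0507). With Parental as the control the SYNM and NES calls were lost (0.669 and 0.11).

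Mesenchymal genes other than VIM moved in both directions. Of 11 tested, 2 rose and 5 fell in shAjuba1, 2 rose and 1 fell in shAjuba2, and 3 fell in Ajuba OE, beside the same shares of all genes. The cadherin CDH11 was at 67.7 and 67.8 RPM in Parental and 28.5 to 31.7 RPM in shScrambled. It reached 140 to 163 RPM in shAjuba1 and 94.5 to 121 RPM in shAjuba2. It was at 35.2 to 38.4 RPM in Control and 3.62 to 4.20 RPM in Ajuba OE. CDH11 rose in shAjuba1 (2.32 ± 0.10) and shAjuba2 (1.80 ± 0.14) and fell in Ajuba OE (-3.16 ± 0.11). ZEB1, a repressor of epithelial genes, did likewise at 0.57 ± 0.10, 0.73 ± 0.14 and -0.54 ± 0.10. The matrix protein fibronectin, FN1, fell in shAjuba1 (-0.59 ± 0.08) and also in Ajuba OE (-0.61 ± 0.09), and S100A4 fell in shAjuba1 (-0.58 ± 0.09). The CDH11 calls held without each sample. Against Parental the CDH11 value in shAjuba1 was smaller, at 1.14. CDH11 was also lower than in Parental in shScrambled (-1.18 ± 0.08, adjusted p = 1.11e-10) and in Control (-0.89 ± 0.10, adjusted p = 0.0235). The ZEB1 call was lost in shAjuba2 without either shScrambled sample or shAjuba2 replicate 1 (adjusted p = 0.0712 to 0.281) and in Ajuba OE without any 1 of the 6 samples (0.0581 to 0.128). The FN1 call in Ajuba OE was lost without Control replicate 3 or Ajuba OE replicate 1 or 3 (0.052 to 0.083). In these 3 comparisons the sign of the value for VIM was that of CDH11 and ZEB1 and not that of FN1 in shAjuba1. S100A4 had the opposite sign to VIM each time. Its uncalled values were -0.52 ± 0.46 for shAjuba2 and 0.18 ± 0.33 under overexpression. The median log2 fold change of the 11 genes was negative, opposite to VIM, for both shAjuba1 (-0.38) and shAjuba2 (-0.27). Under overexpression this median was -0.14, the sign of VIM.

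Processed pseudogenes of the members can hold reads of their parents. The 51 pseudogenes of KRT8 had 5.38 to 6.67% of the count of KRT8, and the 67 of KRT18 had 0.15 to 0.45%. Adding their counts to the parent, an alternative chosen after the data were seen, changed no count of calls. Of 24 pseudogenes tested in shAjuba1, 1 was called, higher, by edgeR, beside 38.4% of all genes. In shAjuba2 edgeR called 0 of 27 (1 at an unadjusted p under 0.05), beside 7.63% of all genes. In Ajuba OE it called 0 of 25 (0 unadjusted), beside 5.43%. DESeq2 called 0 in all 3 comparisons. In shScrambled against Parental edgeR called 9 of 26 pseudogenes, all lower, beside 30.7% of all genes (15.6% lower). DESeq2 called 7 there, beside 21.6% of all genes. No test of these shares was made. Of the antisense genes, 3 were tested, and KRT10-AS1 rose in shAjuba1 (0.39 ± 0.13, adjusted p = 0.0265). Its direction rested on the control line, since it was at 7.43 to 7.85 RPM in shAjuba1, 5.27 to 6.31 RPM in shScrambled and 9.10 to 10.9 RPM in Parental, and it fell in shScrambled against Parental (-0.80 ± 0.14, adjusted p = 8.3e-05).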

How the data were processed

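RNA from 16 samples of 6 SW480 lines was sequenced as paired 50 bp reads of stranded mRNA libraries. The authors used HISAT2 with the hg38 genome and deposited raw counts per Ensembl gene from featureCounts, whose versions, strand option and annotation release are not given in the sources used here. Per the labels, each column was mapped to its sample by title, and none was left over. Symbols came from GENCODE v44 on hg38 for 56434 of 66023 genes, holding 99.79% of counts. RPM is the count per 1000000 counts of the sample, and RPM per kilobase divides it by the length of the main (MANE Select) transcript, since levels of different genes compare only per length.

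Pairs of lines were compared with the quasi-likelihood test of edgeR 4.0.16 in R 4.3.3 (two-sided, TMM, genes kept by filterByExpr, Benjamini-Hochberg adjustment over all genes tested, threshold 0.05), and the script was tested on simulated data. Alternatives were DESeq2 1.42.0, other scalings and filters, a fold minimum, 1 fit of all samples, the replicate number as a block, Parental as the control, and leaving out each sample. Intervals of SE cover the spread between samples only.

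The 9 genes and the gene lists were chosen with earlier results of these data known. From each list the text names at most the 4 genes of highest mean RPM among those called in a study comparison, any other keratin of at least 10 RPM, and, as nearest in pattern to each member, the 2 genes of highest Pearson r among 15757 with at least 10 counts in every sample. KRT14 and the marker lists are given by level as cell type markers.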

Additional observations from a re-analysis of the deposited data

Results flagged for a closer look

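No member of the set was called between the knockdown lines. Among the other named genes, these differed when shAjuba1 was tested directly against shAjuba2 by edgeR (log2 fold change, positive where shAjuba1 was higher). Of the keratins, KRT5 differed by 1.77 (adjusted p = 0.000818), KRT71 by 2.33, KRT74 by 1.38, KRT81 by 1.37 and KRT13 by -0.74, the first 4 being higher in all 3 shAjuba1 samples than in any shAjuba2 sample. Of the other intermediate filament genes, DES differed by 0.84 and SYNM by 0.46. Of the mesenchymal genes, CDH11 differed by 0.53 and FN1 by -0.74. Of the colon epithelium markers, the actin-bundling VIL1 differed by 0.99 and E-cadherin, CDH1, by 1.43. The calls of SYNM, DES and CDH11 were lost without 1 sample (adjusted p = 0.0509 to 0.0892), namely any shAjuba1 sample for SYNM and DES, also shAjuba2 replicate 1 for SYNM, and shAjuba1 replicate 1 or 2 for CDH11. No cause was tested for any of these differences.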

How the results depend on the processing

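In edgeR's comparisons of 2 lines, 5, 1, 0, 0, 5 and 0 of the 9 genes were called in shAjuba1 against shScrambled, shAjuba2 against shScrambled, Ajuba OE against Control, shAjuba1 against shAjuba2, shScrambled against Parental and Control against Parental. Over all genes the shares called were 38.4, 7.63, 5.43, 19.6, 30.7 and 0.37% in the same order. The share of all genes called under each alternative is given in brackets. With a minimum log2 fold change of 1 there were 0 in shAjuba1 (9.84%), in shAjuba2 (4.35%) and in shScrambled against Parental (5.05%). With all 16 samples in 1 fit there were 2 in shAjuba1 (23.2%) and 2 in shAjuba2 (15.6%) against shScrambled. In that fit there were 2 in Ajuba OE (10.1%), 1 between the knockdown lines (24.2%) and 3 in shScrambled against Parental (7.19%). DESeq2 called 3 in Ajuba OE (8.34%) and 1 between the knockdown lines (21.3%). Testing every gene with at least 1 count gave 2 (3.22%) and 1 (12.5%). With Parental as the control there were 2 in shAjuba2 (8.14%) and 1 in Ajuba OE (7.15%). Leaving out replicate 2 of both Control and Ajuba OE, an alternative chosen after seeing the data, gave 2 (8.18%). Leaving out 1 shAjuba1 sample gave 4 to 5 in shAjuba1 (31.4 to 45.4%). Leaving out 1 shAjuba2 sample gave 0 to 3 in shAjuba2, namely 0 without replicate 1 (2.24%) and 3 without replicate 2 (22.7%). Between the knockdown lines the count without 1 sample was 0 to 2. It was 1 without shAjuba2 replicate 2 (26.9%) and 2 without shAjuba2 replicate 3 (21.5%). Without either shScrambled sample, which left 1 sample in that line, fewer members and fewer genes were called in both knockdown lines. The cause was not tested. Of the other alternative counts that leave out no single sample, 41 were within 1.5 times the count of calls given first.

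The replicate numbers do not pair the samples by the labels, and in Ajuba OE and Control the deviations of same-numbered samples correlated at 0.163, 0.616 and -0.0474 (r), with 2 of 6 samples closest to their own number. In shAjuba2 and shScrambled they correlated at 0.0837 and 0.214, with 3 of 4 samples closest to their own number. With the replicate block 3 members were called in shAjuba2, beside 24.0% of all genes, and 6 in Ajuba OE, beside 24.3%. It reversed KRT10 (-0.11) and KRT19 (-0.072) in shAjuba1, KRT8 (-0.10), KRT10 (-0.22) and KRT18 (-0.16) in shAjuba2 and KRT19 (-0.042) in Control against Parental, all uncalled.

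With Parental as the control, the log2 fold change turned in shAjuba1 for KRT8 (-0.39), KRT18 (-0.27), KRT19 (-0.13), KRT20 (-0.21), KRT80 (0.29), CDH1 (-0.79), DES (-0.076), PKP2 (-0.23), PKP4 (-0.016) and YWHAE (-0.13), in shAjuba2 for KRT7 (0.87), KRT8 (-0.56), KRT18 (-0.63) and KRT80 (0.058), and in Ajuba OE for KRT8 (-0.0065). Scaling by library size alone turned KRT7 in shAjuba2 (0.017), and the fit of all samples turned KRT19 in Control against Parental (-0.0015). Leaving out 1 sample turned uncalled values only, with ranges in shAjuba1 of -0.088 to 0.15 for KRT10, -0.067 to 0.18 for KRT19 and -0.23 to 0.16 for KRT20. In shAjuba2 they were -0.087 to 0.10 for KRT7, -0.062 to 0.32 for KRT8, -0.19 to 0.46 for KRT10 and -0.11 to 0.30 for KRT18. In Ajuba OE KRT10 ran from -0.18 to 0.27, and between the knockdown lines KRT8 from -0.021 to 0.38, KRT10 from -0.43 to 0.24 and VIM from -0.055 to 0.29. KRT10 ran from -0.068 to 0.43 in shScrambled against Parental. In Control against Parental KRT10 ran from -0.13 to 0.39, KRT19 from -0.11 to 0.14, KRT20 from -0.19 to 0.49 and KRT23 from -0.14 to 0.022.

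Over all genes, Ajuba OE against Control had 506 higher and 641 lower calls, and 360 and 748 when scaled by library size alone. Depth limits KRT20 (5 to 22 counts) and the lines of 2 samples limit every comparison with shScrambled or Parental.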

Other observations

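Genes with the pattern most like each member over the 16 samples were listed by Pearson's r of log2 values, as a description with no test, since samples of a line share their construct. KRT23 was most like EPCAM, the epithelial adhesion molecule (r = 0.984), and C6orf132 (0.981). EPCAM was at 114 to 127 RPM in shScrambled, 71.6 to 76.3 RPM in shAjuba1, 48.3 to 87.9 RPM in shAjuba2, 113 to 156 RPM in Control and 175 to 242 RPM in Ajuba OE, and fell in shAjuba1 (-0.73 ± 0.08, adjusted p = 2.36e-05). KRT80 was most like LOXL2, a lysyl oxidase that crosslinks collagen (r = 0.98), and APBB1 (0.96). VIM was most like AP1M1 (0.963) and CYP2S1 (0.945), and KRT7 most like NEK6 and RAB37 (both 0.962). KRT8 and KRT18, each other's closest member, were next most like AAGAB (0.941) and PGM1 (0.939), and LRRC42 (0.946) and S100A11 (0.94). KRT19 was most like ACOT2 (0.94) and F12 (0.907), and KRT10 most like METTL23 (0.93) and JTB (0.911). The lists for KRT20 rest on as few as 5 counts in a sample and are not given.

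VIL1, an actin-bundling protein of the brush border, fell in shAjuba1 (-1.41 ± 0.12) and in shAjuba2 (-2.38 ± 0.16) and rose in Ajuba OE (1.03 ± 0.09), the same signs as KRT23. VIL1 averaged 42.5 RPM in Parental, 55.4 RPM in shScrambled, 21.1 RPM in shAjuba1 and 11.0 RPM in shAjuba2. It averaged 28.1 RPM in Control and 55.1 RPM in Ajuba OE, which was thus not above shScrambled. By edgeR shScrambled was itself higher than Parental (0.38 ± 0.08, adjusted p = 0.000982). CDH1 rose in both shAjuba1 (0.73 ± 0.11) and Ajuba OE (0.77 ± 0.13), and CDX2, a factor of intestinal identity, rose in Ajuba OE (0.64 ± 0.11). Both of these Ajuba OE calls were lost without Control replicate 3 or Ajuba OE replicate 1, that of CDH1 also without Ajuba OE replicate 3 and that of CDX2 without Control replicate 1 (adjusted p = 0.0559 to 0.0897), and both against Parental (0.0804 for CDH1 and 0.0631 for CDX2). Against Parental the value of CDH1 in shAjuba1 was -0.79.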
